A study of Mus musculus with 15 samples.

Results

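The insulin-like growth factor (IGF) axis was followed in cultured mouse lung cells as the transcripts of its ligands (Igf1 and Igf2), its receptors (Igf1r and Igf2r) and 6 of its secreted binding proteins (Igfbp2 to Igfbp7). Members were the probes, other than control probes, that carry one of these names in the scanner files: 16 of 55681 probes, covering all 10 genes. Igf1 had 5 probes, Igfbp2 and Igfbp3 had 2 each and the other 7 genes had 1 each. The choice rests on gene names and on no measured value.

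Total RNA was hybridised to 15 single-colour arrays in 4 groups: 4 arrays of primary ATII cells with 1 mM β-aminopropionitrile (BAPN) for 24 h, 4 of ATII cells with vehicle (phosphate-buffered saline) for 24 h, 3 of primary lung fibroblasts with 1 mM BAPN for 24 h, and 4 of fibroblasts with vehicle for 24 h. ATII (alveolar type II) cells make surfactant, fibroblasts make the lung's collagen matrix, and BAPN irreversibly blocks lysyl oxidases, which begin to cross-link the fibres of collagen and elastin. ATII cells had formed a monolayer during 3 days at an air-liquid interface, whereas fibroblasts were used after a minimum of 3 passages and a 24 h starvation, so cell type and culture cannot be told apart. The labels used here do not give the strain, sex or age of the mice, or whether replicates came from separate animals or cultures. Their p-values therefore reflect only how far these arrays spread, possibly for technical reasons. An array of BAPN-treated ATII cells titled as a replacement carries no number and is called replicate 5, and no fibroblast array with BAPN and the number 3 was analysed here.

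IGF-1 and IGF-2 are small secreted ligands that signal through the receptor tyrosine kinase encoded by Igf1r, while the receptor encoded by Igf2r, which is also the cation-independent mannose 6-phosphate receptor, takes up IGF-2 for degradation in lysosomes. The binding proteins IGFBP-2 to IGFBP-6 hold the ligands with high affinity outside the cell, which stores them or keeps them from the receptor, and proteases set them free. In the lung, IGF-1 from mesenchymal cells and macrophages is known as a growth and survival signal for fibroblasts and epithelium.

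A value is the log2 processed signal of a probe minus the 75th percentile of its own array, called the level, so a level of 0 is the brightness of the 75th percentile. Levels of different probes are not compared, since each probe has its own response. The first 30 bases of the 60-base probes are given for Igf1 and Igfbp3, because the results for these genes differ between probes, with capitals for bases shared by overlapping probes of one gene. Positions are those in the files, on mouse build mm9.
Igf1 A_55_P2031631: AGTCCAATAACATTACAAAGATGGGCATTT
Igf1 A_55_P2085984: cctaccaaataacaataataAGTCCAATAA
Igf1 A_55_P2031636: agaaatgtaaatggaataagaggtcagctg
Igf1 A_55_P2085974: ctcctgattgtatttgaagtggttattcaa
Igf1 A_55_P2085979: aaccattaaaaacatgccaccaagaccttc
Igfbp3 A_52_P253179: gcagttttccaaaaacacagatttcttttc
Igfbp3 A_55_P1992715: ggagaacctggcatatttggtttctgaatt

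The Igf1 probes lie on the plus strand of chromosome 10, with A_55_P2031631 at chr10:87393581-87393640 and A_55_P2085984 at chr10:87393561-87393620, so that these share 40 bases. A_55_P2031636 lies at chr10:87395924-87395983 and A_55_P2085974 at chr10:87399581-87399640. A_55_P2085979 lies upstream of them, at chr10:87378456-87378515, and is listed in the files for another Igf1 transcript (variant 2) than the other 4 probes. For Igfbp3, on the minus strand of chromosome 11, A_52_P253179 lies at chr11:7106594-7106653 and A_55_P1992715 at chr11:7107949-7108008. The second of these probes is listed for an Ensembl transcript only. Exon and untranslated region labels on mm9 are not used here.

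Promoters of 3 genes are shown because their genes had the largest differences between the cell types or sit next to one of them: Igfbp2 and Igfbp5 are neighbouring protein-coding genes on chromosome 1, and Igfbp3 differed in the opposite direction. Each is the 250 bases before the gene's start from RefSeq, build GRCm38.p6, on the gene's strand, and for Igfbp2 the first of its listed starts. Capitals mark the GC box GGGCGG, which reads CCGCCC on its opposite strand. They also mark the AT-rich hexamers, namely TATAAA with TTTATA as its opposite strand, then TATATA, then TTTAAA.
Igfbp2, chr1:72824230-72824479, plus strand: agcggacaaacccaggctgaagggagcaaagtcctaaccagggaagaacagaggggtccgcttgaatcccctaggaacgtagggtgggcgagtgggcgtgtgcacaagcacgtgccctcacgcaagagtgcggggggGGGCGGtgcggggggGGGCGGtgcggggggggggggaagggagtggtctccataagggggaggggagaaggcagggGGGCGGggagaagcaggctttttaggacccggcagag
Igfbp5, chr1:72874866-72875115, minus strand: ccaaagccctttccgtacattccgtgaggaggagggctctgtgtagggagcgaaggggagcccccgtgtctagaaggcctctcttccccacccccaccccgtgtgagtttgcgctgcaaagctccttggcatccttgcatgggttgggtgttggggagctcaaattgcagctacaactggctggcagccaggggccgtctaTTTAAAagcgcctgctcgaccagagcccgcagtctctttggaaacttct
Igfbp3, chr11:7213924-7214173, minus strand: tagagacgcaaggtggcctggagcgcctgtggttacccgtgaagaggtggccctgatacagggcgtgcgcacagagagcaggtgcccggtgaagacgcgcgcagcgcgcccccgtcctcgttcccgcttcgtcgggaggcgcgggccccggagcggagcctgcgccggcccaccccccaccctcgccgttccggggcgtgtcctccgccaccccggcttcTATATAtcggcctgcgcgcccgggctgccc

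The Igfbp2 window held 3 GC boxes and none of the AT-rich hexamers. The Igfbp5 window held 1 TTTAAA and the Igfbp3 window 1 TATATA, both without a GC box. The window before the other listed Igfbp2 start, not printed here, held 0 GC boxes and none of the hexamers. Of 32851 RefSeq windows of this length, 32.7% held a GC box, 12.4% TATAAA, 12.1% TTTAAA and 5.25% TATATA, on either strand. These matches describe the windows and are not evidence that a factor binds there.

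Of the 16 probes, 14 were well above background on all 15 arrays. The exceptions were the Igf2 probe and the second Igfbp3 probe, A_55_P1992715. By array, 65.2% to 71.2% of spots exceeded background well, and 0 were saturated. The 15 arrays came from 2 slides, each with arrays of all 4 groups. The labels were checked against marker genes. All 6 epithelial markers were well above background on every ATII array, with a summed level (in multiples of the 75th percentile) of 549 to 842 in ATII arrays and 3.52 to 17.3 in fibroblast arrays, and the surfactant gene Sftpc had levels of 0.22 to 2.12 in ATII arrays and was at most -5.32 in fibroblast arrays. The list of 10 ATII markers set the cell types less far apart, with a summed level of 39.4 to 43.3 in ATII arrays and 28.1 to 36.9 in fibroblast arrays. All 10 fibroblast markers were well above background on every ATII array, with a summed level of 564 to 827 there and 683 to 1091 in fibroblasts. The collagen gene Col1a1 had a level of 7.30 to 7.96 on ATII arrays and 7.21 to 7.78 on fibroblast arrays. The smooth muscle actin gene Acta2 had a level of 8.39 to 8.92 on ATII arrays and 8.77 to 9.31 on fibroblast arrays. The mesothelial gene Msln had one of 6.04 to 7.16 on ATII arrays and -1.70 to 2.64 on fibroblast arrays. Their list of 7 smooth muscle and mesothelial markers summed to 591 to 751 on ATII arrays and 678 to 936 on fibroblast arrays. Of these markers, 2 were higher and 3 lower in vehicle-treated ATII cells. The ATII cultures carried epithelial and mesenchymal transcripts together.

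**Figure D1:**
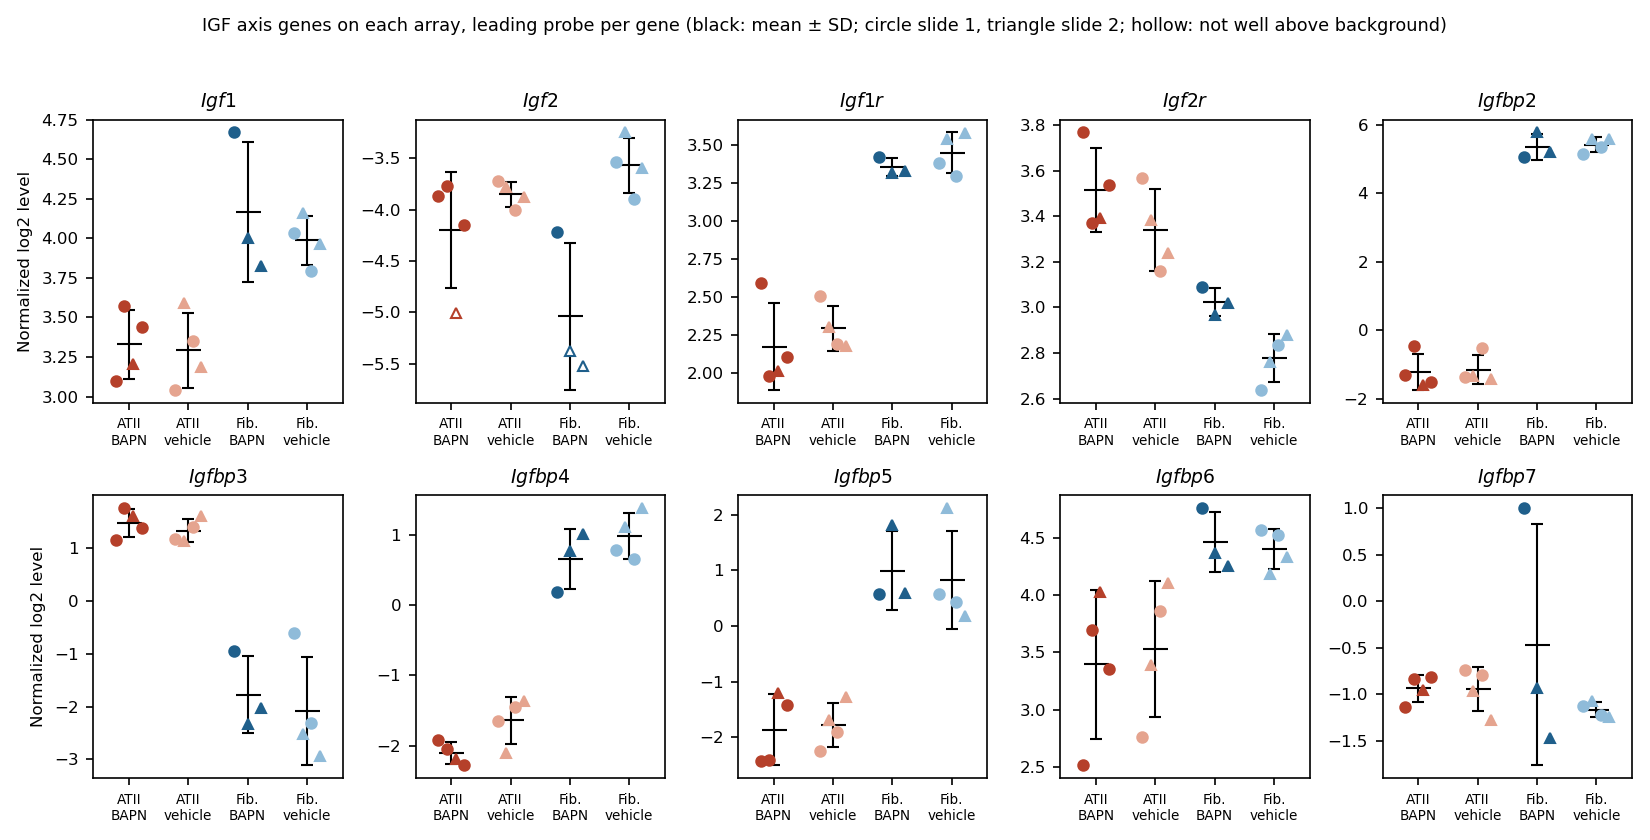
Normalized log2 level of each of the 10 genes (leading probe, y axis) on every array, by group (x axis). Points are arrays (circles slide 1, triangles slide 2, hollow where the probe was not well above background), and black bars are the mean ± SD. For Igfbp2, Igfbp4 and Igfbp5 all 8 ATII arrays lie below all 7 fibroblast arrays, and for Igfbp3 all lie above them.

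The first comparison asks how the IGF axis differs between the cell types. In vehicle arrays, ATII cells had far less Igfbp2, less Igfbp4, Igfbp5, Igf1r, Igf1 and Igfbp6, and more Igfbp3 and Igf2r transcript than fibroblasts, while Igf2 and Igfbp7 did not pass the test. By leading probe (the probe of a gene with the highest mean), 8 of the 10 genes passed, 2 higher and 6 lower in ATII cells. By probe, 13 of 16 passed (limma, Benjamini-Hochberg adjusted p under 0.05 over all probes tested), against 33.5% of all probes tested, 14.7% higher and 18.8% lower. The members' median change was -0.68 by probe, beside -0.15 over all probes tested. In these cultures, fewer cells that express a gene and less RNA per cell cannot be told apart. The BAPN arrays of the same cells gave the same counts, 13 of 16 probes, 3 higher and 10 lower, against 31.0% of all probes (13.8% higher and 17.2% lower). They share no array with the vehicle comparison but use the same estimate of the spread, so they are not an independent repeat. Their log2 changes were -2.78 for Igfbp4, -2.86 for Igfbp5, -1.18 for Igf1r, -0.84 for Igf1 and 0.49 for Igf2r.

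Igfbp2, whose product binds both ligands with some preference for IGF-2, had levels of -1.32, -0.46, -1.61 and -1.49 in BAPN-treated ATII cells and -1.36, -1.33, -0.52 and -1.41 in vehicle-treated ATII cells. In fibroblasts it had levels of 5.04, 5.77 and 5.21 with BAPN and 5.13, 5.59, 5.34 and 5.59 with vehicle. The highest ATII array thus lay more than 5 log2 units below the lowest fibroblast array. In vehicle arrays Igfbp2 differed by -6.57 on the log2 scale (94.8-fold lower in ATII cells, SE 0.27, adjusted p = 1.29e-09), and its second probe gave -6.74. With BAPN the change was -6.56.

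Igfbp5, the neighbour of Igfbp2, encodes a binding protein that attaches to extracellular matrix. Its levels were -2.43, -2.40, -1.21 and -1.41 in BAPN-treated ATII cells and -2.24, -1.68, -1.91 and -1.28 in vehicle-treated ATII cells. In fibroblasts they were 0.57, 1.82 and 0.59 with BAPN and 0.57, 2.12, 0.44 and 0.18 with vehicle. The cell types did not overlap, but the arrays of one group spread over more than 1 log2 unit in all groups except vehicle-treated ATII cells. Igfbp5 was 6.09-fold lower in vehicle-treated ATII cells (-2.61 on the log2 scale, SE 0.44, adjusted p = 0.000448). Igfbp4, which encodes a soluble inhibitor of IGF action cleaved by the protease pappalysin, averaged -2.11 ± 0.16 in BAPN-treated and -1.64 ± 0.33 in vehicle-treated ATII cells (SD, n = 4 each), against 0.66 ± 0.43 (n = 3) and 0.99 ± 0.33 (n = 4) in BAPN- and vehicle-treated fibroblasts. It was 6.20-fold lower in vehicle-treated ATII cells (-2.63 on the log2 scale, SE 0.21, adjusted p = 6.77e-07).

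Igfbp3 encodes the main IGF carrier of serum, which also acts on cells on its own, and it ran the other way. Its leading probe had levels of 1.15, 1.75, 1.59 and 1.38 in BAPN-treated ATII cells and 1.16, 1.13, 1.39 and 1.59 in vehicle-treated ATII cells. In fibroblasts the levels were -0.96, -2.34 and -2.03 with BAPN and -0.61, -2.51, -2.30 and -2.94 with vehicle. ATII arrays lay close together, between 1.13 and 1.75, whereas fibroblast arrays ran from -2.94 to -0.61. Igfbp3 was 10.6-fold higher in vehicle-treated ATII cells (3.41 on the log2 scale, SE 0.42, adjusted p = 2.97e-05) and 9.45-fold higher in BAPN-treated ATII cells. The second probe, printed above with the first, passed in the same direction in vehicle arrays (log2 change 1.16, SE 0.28, adjusted p = 0.00518), though it was well above background on only 1 of the 4 vehicle-treated fibroblast arrays. On BAPN arrays it was well above background on none of the 3 fibroblast arrays, so only a bound can be given. ATII cells exceeded fibroblasts at least 3.20-fold. The limma test, made on the probe's own signals and not on this bound, gave an adjusted p of 7.82e-06. The bound sets the ATII mean against, for each fibroblast array, the higher of the probe's own signal and the lowest signal well above background.

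Igfbp6, whose product prefers IGF-2, was the least certain of the 8 genes. Levels were 2.51, 3.69, 4.03 and 3.36 in BAPN-treated ATII cells, 2.76, 3.39, 3.86 and 4.11 in vehicle-treated ATII cells, 4.76, 4.37 and 4.26 in BAPN-treated fibroblasts and 4.57, 4.19, 4.53 and 4.34 in vehicle-treated fibroblasts. The ATII arrays lay below the fibroblast arrays, with 4.11 as the highest ATII value and 4.19 as the lowest fibroblast value. In vehicle arrays the log2 change was -0.88 (SE 0.32, adjusted p = 0.0489) and with BAPN it was -1.07 (SE 0.34, adjusted p = 0.0306). Under 11 of 20 alternative settings the vehicle call was lost, among them the slide as a block (adjusted p = 0.0567), the replicate number as a block (adjusted p = 0.0640) and leaving out ATII vehicle replicate 1 (-0.62, adjusted p = 0.147). The call on BAPN arrays was lost under 9 of 19, with changes of -1.58 to -0.29 over all of them. Igfbp7, whose product binds IGFs only weakly and is better known as a matrix protein, did not pass: its mean was -0.94 ± 0.24 in vehicle-treated ATII cells and -1.16 ± 0.08 in vehicle-treated fibroblasts (SD, n = 4 each), with a 95% interval of the difference of -0.59 to 1.04.

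**Figure D2:**
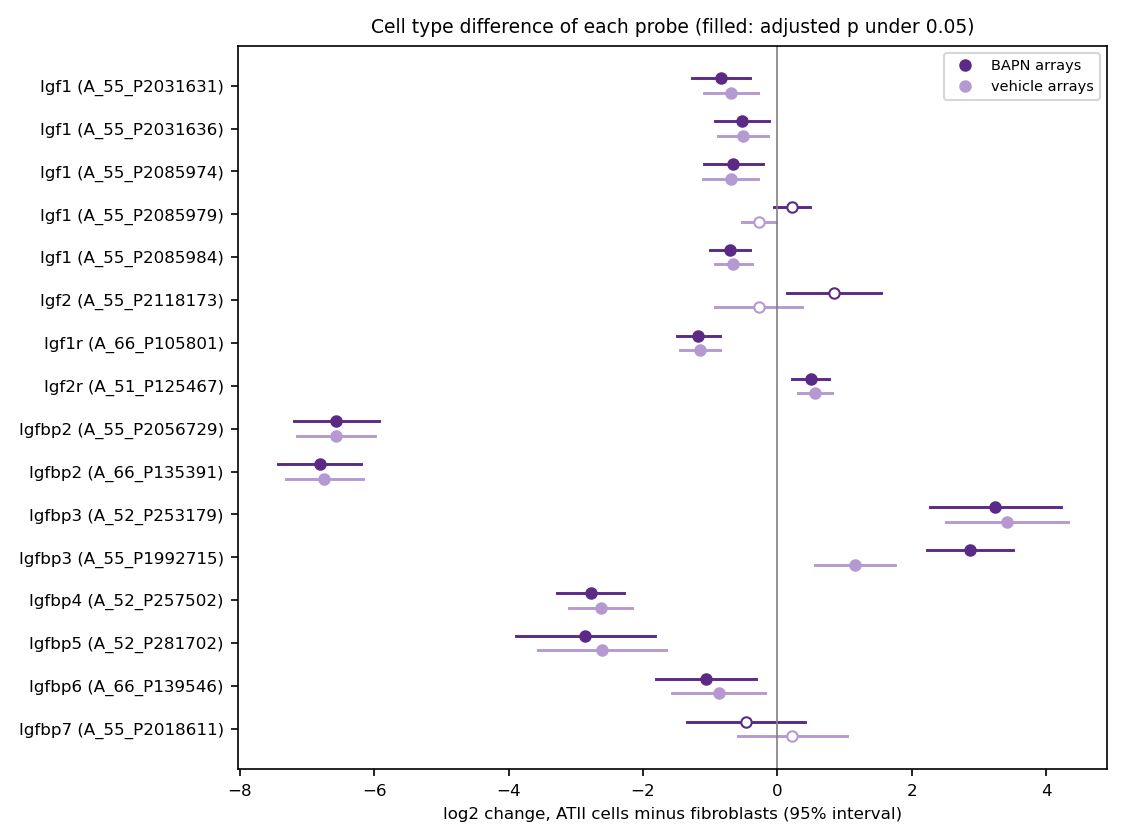
Log2 change between ATII cells and fibroblasts (x axis) for each of the 16 probes (y axis), on BAPN arrays and on vehicle arrays; bars are 95% intervals from the limma fit and filled points passed the test. Changes of Igfbp2 reach -6.81, while both Igfbp3 probes lie to the right of 0.

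Among the ligands, Igf1 was lower in ATII cells. Its leading probe, A_55_P2031631, had levels of 3.10, 3.57, 3.21 and 3.44 in BAPN-treated and 3.04, 3.59, 3.35 and 3.19 in vehicle-treated ATII cells, against 4.67, 4.00 and 3.83 in BAPN-treated and 4.03, 4.16, 3.79 and 3.96 in vehicle-treated fibroblasts. The cell types did not overlap. In vehicle arrays Igf1 was 1.62-fold lower in ATII cells (-0.69 on the log2 scale, SE 0.18, adjusted p = 0.0100). Of its 4 other probes, 3 also passed, with changes of -0.52 to -0.70, whereas the transcript variant 2 probe did not (-0.27, adjusted p = 0.0986). Macrophages are another source of Igf1, and most leukocyte and macrophage markers differed in the same direction between the cell types. The 10 listed markers summed to 26.1 to 42.4 on ATII arrays and 69.3 to 86.8 on fibroblast arrays. Of the 10, 9 were lower and 1 was higher in vehicle-treated ATII cells. Among these markers the macrophage complement gene C1qa had levels of -6.39 to -4.80 on ATII arrays and -0.39 to 1.52 on fibroblast arrays. Their part in the result was not tested.

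Igf2, the fetal growth ligand and an imprinted gene, was near the limit of detection in both cell types. It averaged -3.85 ± 0.12 in vehicle-treated ATII cells and -3.57 ± 0.27 in vehicle-treated fibroblasts (SD, n = 4 each), and these groups overlapped (log2 change -0.28, 95% interval -0.93 to 0.37, adjusted p = 0.526). On BAPN arrays the difference had the opposite sign and did not pass either (0.84, 95% interval 0.14 to 1.54, unadjusted p = 0.0219, limma adjusted p = 0.0655). The levels there were -3.87, -3.77, -5.01 and -4.15 in ATII cells and -4.22, -5.38 and -5.52 in fibroblasts, which overlapped. It passed under 3 of 17 alternatives: normexp background (0.40), without ATII BAPN replicate 4 (1.11) and without fibroblast BAPN replicate 1 (1.25).

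Both receptors differed, in opposite directions. Igf1r had levels of 2.59, 1.98, 2.02 and 2.11 in BAPN-treated ATII cells and 2.50, 2.30, 2.19 and 2.18 in vehicle-treated ATII cells, against 3.42, 3.31 and 3.33 in BAPN-treated and 3.38, 3.54, 3.30 and 3.58 in vehicle-treated fibroblasts. It was 2.23-fold lower in vehicle-treated ATII cells (-1.16 on the log2 scale, SE 0.14, adjusted p = 2.17e-05). Igf2r, measured by a probe with 10 spots on each array, had levels of 3.77, 3.37, 3.39 and 3.54 in BAPN-treated and 3.57, 3.38, 3.16 and 3.24 in vehicle-treated ATII cells, against 3.09, 2.97 and 3.02 in BAPN-treated and 2.64, 2.76, 2.83 and 2.88 in vehicle-treated fibroblasts. Every ATII array lay above every fibroblast array. The change was small, 1.47-fold higher in vehicle-treated ATII cells (0.56 on the log2 scale, SE 0.12, adjusted p = 0.00219).

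With each slide taken alone, all 8 vehicle changes kept their direction. On slide 1 and slide 2 they were -6.17 and -6.96 for Igfbp2, 2.73 and 4.09 for Igfbp3, -2.28 and -2.98 for Igfbp4, -2.58 and -2.63 for Igfbp5, and -0.99 and -1.32 for Igf1r. Smaller ones were -0.72 and -0.67 for Igf1, 0.63 and 0.49 for Igf2r, and -1.24 and -0.51 for Igfbp6. With 2 arrays of a group on a slide, Igf2r and Igfbp6 did not pass on either slide, and Igf1 and Igfbp5 did not pass on slide 2.

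For the genes that passed between the cell types, the order of the 4 groups followed cell type. Igfbp2 averaged -1.22 ± 0.52 in BAPN-treated and -1.15 ± 0.43 in vehicle-treated ATII cells, against 5.34 ± 0.38 in BAPN-treated and 5.41 ± 0.22 in vehicle-treated fibroblasts (SD, n = 4, 4, 3 and 4), an order from low to high. Igf1r had the same order, with 2.17 ± 0.29 in BAPN-treated and 2.29 ± 0.15 in vehicle-treated ATII cells, against 3.35 ± 0.06 in BAPN-treated and 3.45 ± 0.13 in vehicle-treated fibroblasts. For these genes, and for Igfbp3, Igfbp4, Igfbp5, Igfbp6, Igf1 and Igf2r, neighbours in the order had ranges without overlap only where the cell type changed. The exception was Igf2r in fibroblasts, whose BAPN and vehicle arrays did not overlap. Since these genes had passed, a lack of overlap between the cell types follows in part from that choice. The share of all probes without such overlap was not counted.

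The second comparison asks what BAPN did to the axis. In ATII cells no member passed the test. Changes ran from -0.47 for Igfbp4 to 0.18 for Igf2r, with a median of -0.03 by probe, and 0 of 16 probes passed in limma's test, as did 0% of all 38559 probes tested. At an unadjusted p under 0.05, 4060 of all probes and 1 member were counted, Igfbp4 (log2 change -0.47, SE 0.21, unadjusted p = 0.0469, adjusted p = 0.465). Its BAPN levels of -1.92, -2.05, -2.19 and -2.28 overlapped the vehicle levels of -1.65, -2.10, -1.45 and -1.36. For 14 of the 16 probes the 95% interval of the change lay within 2-fold in either direction, the exceptions being the leading Igfbp3 probe (-0.76 to 1.05) and the Igfbp5 probe (-1.04 to 0.87).

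In fibroblasts 1 of 15 probes tested passed, Igf2, which fell with BAPN. This share stands beside 12.5% of all 38720 probes tested, 10.6% lower and 1.92% higher. Igf2 had levels of -4.22, -5.38 and -5.52 in BAPN-treated fibroblasts and -3.53, -3.25, -3.90 and -3.59 in vehicle-treated fibroblasts. The groups did not overlap, but the probe was well above background on 1 of the 3 BAPN arrays and on all 4 vehicle arrays. The change was 2.77-fold lower with BAPN (log2 change -1.47, SE 0.32, adjusted p = 0.0139). Calls of this direction were common among dim probes: of 13789 tested probes whose mean level over the 7 fibroblast arrays was below -3, 15.2% were lower and 0.508% higher, whereas of 13170 probes with a mean above 0, 2.1% were lower and 4.08% higher. Leaving out fibroblast BAPN replicate 2 (log2 change -1.30, adjusted p = 0.0625) or 4 (-1.23, adjusted p = 0.0566) ended the call, and the change was -0.50 on slide 1 alone, which holds 1 BAPN-treated fibroblast array (replicate 1, the highest of the 3), and -0.64 with a normexp background correction, whose offset compresses dim signals.

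The other fibroblast changes did not pass. For Igf2r the change was 0.25 on the log2 scale (SE 0.13, adjusted p = 0.243), with all 3 BAPN arrays above all 4 vehicle arrays. Igfbp3 had one of 0.32, Igfbp5 of 0.17, Igfbp6 of 0.06, Igfbp2 of -0.07, Igf1r of -0.10 and Igfbp4 of -0.33. For 11 of the 15 probes the 95% interval lay within 2-fold, while it was wider for Igf2, Igfbp7 (-0.18 to 1.58), the leading Igfbp3 probe (-0.66 to 1.29) and Igfbp5 (-0.87 to 1.20). The second Igfbp3 probe was not tested, since it was well above background on 1 of these 7 arrays.

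For Igfbp7 and Igf1 a single array stood apart. Igfbp7 had levels of 1.00, -0.93 and -1.47 in BAPN-treated fibroblasts, against -1.13, -1.07, -1.22 and -1.25 in vehicle-treated fibroblasts. Fibroblast BAPN replicate 1 alone was high, and the change of 0.70 (SE 0.41, adjusted p = 0.309) became -0.04 without it. On the same array the leading Igf1 probe stood at 4.67 and exceeded the overlapping probe A_55_P2085984 by 0.78, whereas on the other 14 arrays it exceeded it by 0.17 to 0.34. The Igf1 change of 0.18 (adjusted p = 0.618) was -0.07 without that array. The cause of these high values was not tested.

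**Figure D3:**
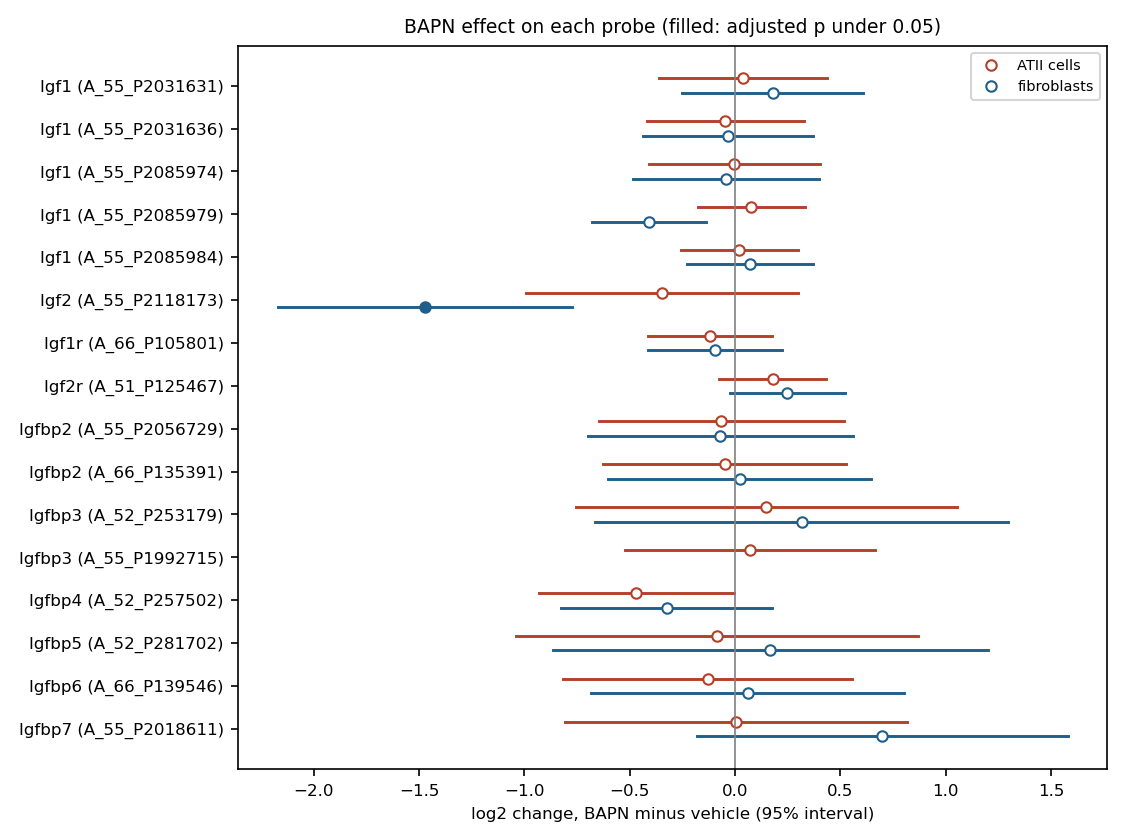
Log2 change with BAPN against vehicle (x axis) for each probe (y axis), in ATII cells and in fibroblasts; bars are 95% intervals and the filled point passed the test. Igf2 in fibroblasts, at -1.47, is the filled point, and the second Igfbp3 probe was not tested in fibroblasts.

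Whether the BAPN effect differed between the cell types was tested directly, by subtracting the fibroblast effect from the ATII effect. None of the 16 probes passed in limma's test (0% of 41163 probes), although 5834 of all probes and 3 members had an unadjusted p under 0.05. One of them, the second Igfbp3 probe (adjusted p = 0.168), was well above background on 0 of 3 BAPN-treated and 1 of 4 vehicle-treated fibroblast arrays, so no size is given for it. The others were the Igf1 variant 2 probe (0.49, unadjusted p = 0.0150, adjusted p = 0.251) and Igf2 (1.12, unadjusted p = 0.0249, adjusted p = 0.290).

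The Igf1 probes were compared with one another within arrays, since the variant 2 probe is listed for another transcript than the rest. In fibroblasts the variant 2 probe had levels of 1.34, 0.98 and 0.98 with BAPN and 1.55, 1.45, 1.33 and 1.71 with vehicle, a log2 change of -0.41 (SE 0.13, adjusted p = 0.0508) that did not pass, while the other 4 probes had changes of -0.04 to 0.18. Its level minus the mean of the other 4 was -1.02, -1.24 and -0.98 in BAPN-treated fibroblasts and -0.72, -0.82, -0.70 and -0.27 in vehicle-treated fibroblasts, without overlap. The value of -1.02 is that of BAPN replicate 1, where the leading probe, part of that mean, stood high and so lowered it. The difference of -0.45 had p = 0.0571 in a two-sided exact permutation test, where 0.0286 is the smallest p that 3 against 4 arrays allow, and 0.114 adjusted over 4 comparisons. Between the cell types the same quantity averaged -0.25 ± 0.14 in ATII cells and -0.63 ± 0.25 in fibroblasts with vehicle (SD, n = 4 each, exact p = 0.0857), and -0.18 ± 0.22 (n = 4) and -1.08 ± 0.14 (n = 3) with BAPN (exact p = 0.0286, adjusted 0.114). On BAPN arrays every ATII array lay above every fibroblast array in this quantity, though no adjusted p passed.

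**Figure D4:**
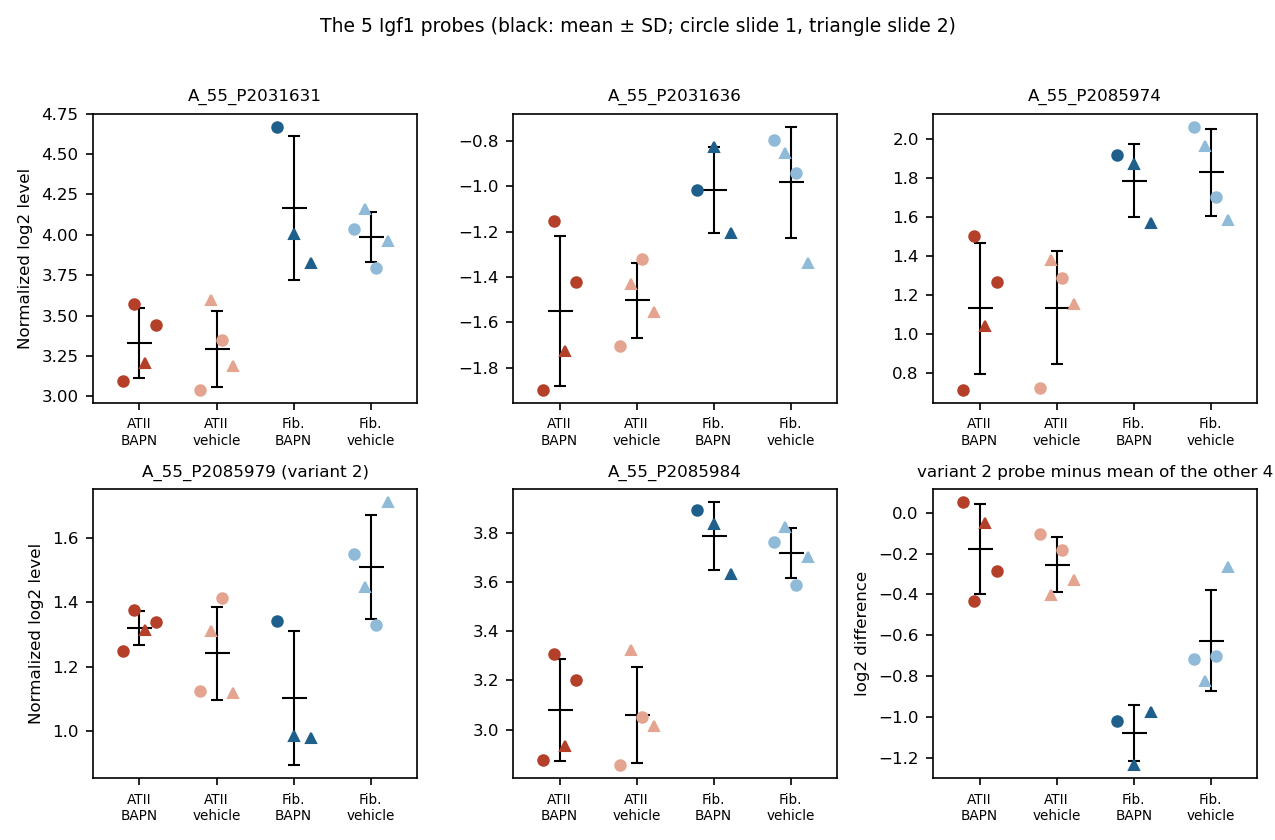
Normalized log2 level of the 5 Igf1 probes on every array by group, and, in the last panel, the variant 2 probe minus the mean of the other 4 (log2 difference). Points are arrays and black bars the mean ± SD. In the last panel BAPN-treated fibroblasts lie lowest, between -1.24 and -0.98.

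Arrays that share a replicate number, one with BAPN and one with vehicle, resembled each other for some binding protein genes. In ATII cells Igfbp6 was 2.51 with BAPN and 2.76 with vehicle at number 1, 3.69 and 3.86 at number 3, and 4.03 and 4.11 at number 4, so that BAPN minus vehicle was -0.25, -0.17 and -0.08 within a number, while the arrays of these numbers spread over 1.59. Igfbp2 in ATII cells was high at number 3 alone, at -0.46 and -0.52. In fibroblasts Igfbp3 was highest at number 1 (-0.96 with BAPN and -0.61 with vehicle) and Igfbp5 at number 2 (1.82 and 2.12). Over the leading probes, arrays of the same number were closer than arrays of different numbers for 7 of 10 genes in ATII cells and 6 of 10 in fibroblasts. Of all 29578 probes well above background on all arrays, 56.4% and 43.0% were closer. Where the BAPN and vehicle arrays of these numbers do not overlap, both mean differences are equal whatever the pairing. This held for Igf2 and Igf2r in fibroblasts and for Igfbp4 in ATII cells, which were scored as not closer. Such ties among all probes were not counted, so the shares cannot show whether members exceed all probes. Some markers of other cells moved with the numbers as well. In fibroblasts Msln was 2.64 with BAPN and 2.59 with vehicle at number 1, -1.70 and -1.61 at number 2, and 1.12 and 1.84 at number 4. The epithelial markers summed to 17.3 and 16.9 at number 1, to 3.52 and 3.58 at number 2, and to 7.76 and 10.4 at number 4. Their part in the spread of Igfbp3 and Igfbp5 was not tested.

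**Figure D5:**
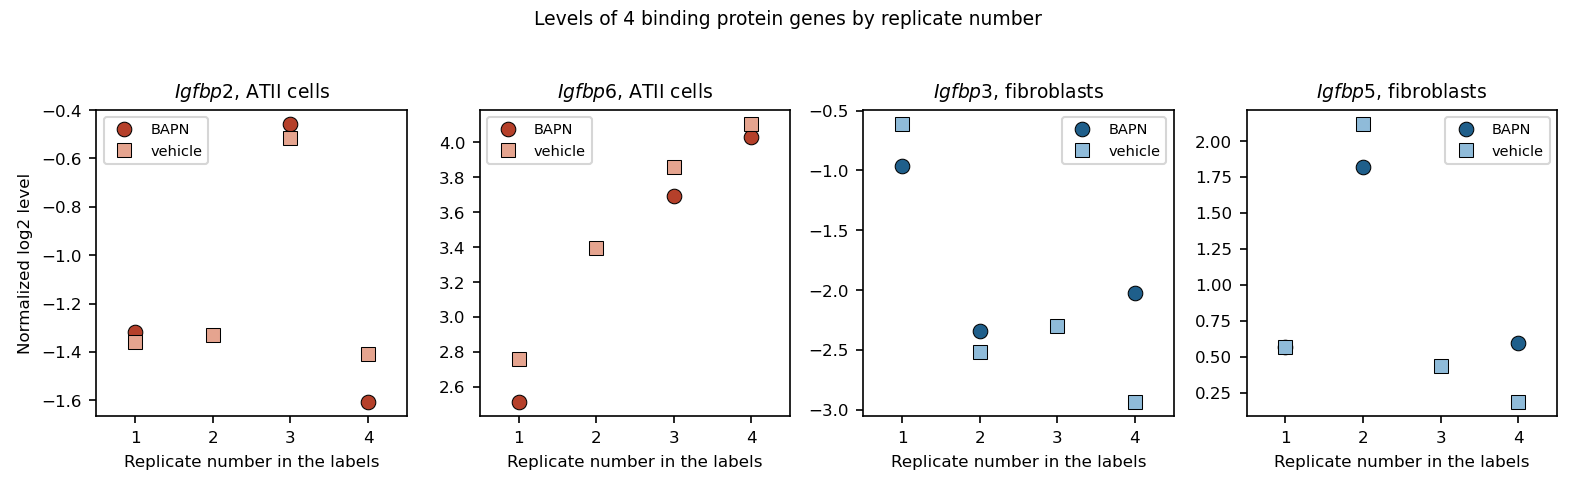
Normalized log2 level (y axis) of Igfbp2 and Igfbp6 in ATII cells and of Igfbp3 and Igfbp5 in fibroblasts against the replicate number in the labels (x axis), circles for BAPN and squares for vehicle; the array called replicate 5 is left out. The BAPN and vehicle points of one number lie close together for Igfbp6, from 2.51 and 2.76 at number 1 to 4.03 and 4.11 at number 4.

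Other genes of the axis were counted by list, in vehicle arrays of ATII cells against fibroblasts, beside the 33.5% of all probes that passed. Among 16 proteases and regulators that act on binding proteins, 8 were higher and 5 lower in ATII cells, with a median change of 0.26. Mmp9, a gelatinase gene, was well above background on no vehicle-treated fibroblast array, so that only bounds hold: at least 99.8-fold higher with ATII cells for Mmp9, and likewise at least 2.09-fold for Adam28. Further rises were those of the serine protease gene Htra1 (log2 change 2.47), the plasminogen activator gene Plat (2.43), Mmp2 (1.55), Adam12 (0.91), whose product cleaves IGFBP-3 and IGFBP-5, the stanniocalcin gene Stc2 (0.62) and Mmp14 (0.47). Lower in ATII cells were Pappa2 (-3.77), whose product cleaves IGFBP-3 and IGFBP-5, the stromelysin gene Mmp3 (-2.77), the urokinase gene Plau (-1.10), the lysosomal protease gene Ctsd (-0.82) and Adam9 (-0.63). Of 7 other genes with an IGF binding protein domain or of the serum complex, 6 were tested. Kazald1 (-2.94) and Crim1 (-1.13) were lower in ATII cells, Htra3 was higher (0.56), and Igfbpl1, well above background on no vehicle-treated fibroblast array, was at least 1.42-fold higher.

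Of 16 genes of the insulin receptor and proximal signalling, 1 was higher and 4 were lower in vehicle-treated ATII cells, with a median of -0.11. This share lay near or below the 33.5% of all probes, as did those of 4 lists that follow. These were the PI3K, growth hormone, lysosomal sorting and insulin family lists, and their counts are not read as results about the lists. Socs1, an inhibitor of cytokine signalling, was higher (0.54). Lower were Grb10 (-1.35), an inhibitor of insulin and IGF receptor signalling, the adaptor gene Shc1 (-0.59) and the phosphatase genes Ptpn1 (-0.33) and Ptpn11 (-0.29). Among 22 genes of the PI3K, AKT, FOXO and mTOR pathway, 5 were higher and 3 lower. The rises were Trib3 (2.39), whose product binds AKT, Ddit4 (1.55), whose product restrains mTOR complex 1, Foxo1 (1.12), the kinase subunit gene Pik3cb (1.04) and Eif4ebp1 (0.47), a translation repressor under mTOR. Among the lower ones were Tsc2 (-0.97), which encodes an inhibitor of mTOR complex 1, and Pik3r1 (-0.74). Of 15 imprinted growth genes and Igf2 mRNA binding genes, 4 were higher and 5 lower. H19, the noncoding neighbour of Igf2 that shares its enhancers, was higher (2.49), as were Plagl1 (2.75), the cyclin kinase inhibitor gene Cdkn1c (2.36) and Ctcf (0.57), whereas Igf2bp3 (-3.13) and Igf2bp2 (-0.95), whose products bind Igf2 mRNA, Peg3 (-1.74), Dlk1 (-1.37) and Hmga2 (-0.63) were lower. The growth hormone receptor gene Ghr was lower (-0.76), the only one of 5 genes of growth hormone input that passed. Of 8 lysosomal sorting partners of Igf2r, Gnptab, which makes the mannose 6-phosphate tag, was higher (0.78) and Plaur lower (-0.33). Of 7 insulin and relaxin family genes tested, Insl6 (-0.91) and Rln3 (-0.44) were lower.

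With BAPN in fibroblasts, 11 of the 93 tested genes of these lists passed, 5 higher and 6 lower, a share near the 12.5% of all probes. None of the 14 proteases tested passed in limma's test, and 0 of them had an unadjusted p under 0.05. The insulin receptor list had Shc1 (0.48) higher and Irs4 (-0.52) lower, the PI3K list had Tsc2 (-0.76) lower, and the growth hormone list had the transcription factor genes Stat5a (0.42) and Stat5b (0.50) higher of 5 tested. Further calls included Htra3 (-0.54), the RNA-binding protein gene Lin28b (-1.68), Gnptab (0.70), Nagpa (-0.50) and Ins1 (-1.04). Lin28b was well above background on only 1 of the 3 BAPN-treated fibroblast arrays, so the size of its change is uncertain. In ATII cells, 0 of the 95 tested genes of these lists passed for BAPN in limma's test, and 9 had an unadjusted p under 0.05.

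For each member the pair of genes with the most similar profile was found, by the root mean square difference of levels centred on their means over the 15 arrays, among 22669 named probes. Igfbp2 was nearest to Serpina3n (0.42) and Sprr2h (0.43), with its own SD over arrays of 3.41, and Igfbp3 to Bcar3 (0.28) and Col27a1 (0.36), with an SD of 1.82. Igfbp5 was nearest to Lmo2 (0.30) and Prl3a1 (0.32), Igfbp4 to Rassf6 (0.27) and Nacad (0.29), and Igfbp6 to Mmp19 (0.23) and Rnf207 (0.24). Igf1r was nearest to Dclk2 (0.12) and Hk1 (0.13), Igf2r to Pnpla2 (0.09) and Dnajc5 (0.10), and Igf1 to Ppp1r3d (0.15) and Erlec1 (0.17). Igf2 was nearest to Bhmt (0.13) and Anapc1 (0.15), and Igfbp7 to Hpca (0.20) and Fam160a2 (0.20). The Igf2 probe was well above background on 7 of 8 ATII and 5 of 7 fibroblast arrays, so its likeness rests in part on dim values. That of Igfbp7 rests largely on fibroblast BAPN replicate 1, at 1.00 against at most -0.74 on any other array. These differences are descriptions over arrays that share 4 groups.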

How the data were processed

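RNA of 15 samples was measured on single-colour Agilent arrays, designed on build mm9. Per the file headers, Agilent Feature Extraction 10.7.3.1 gave each spot's processed intensity, with spatial and multiplicative detrending within the array. A second deposited table gives these arrays on a log2 scale; its columns, once sorted, differ by at most 0.0032, as after quantile normalization, and it served as an alternative. The authors' own test is not used here.

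Each array has 62976 spots. Spots marked as outliers were dropped and the spots of a probe averaged, leaving 55212 of 55681 non-control probes. The log2 intensity minus the array's 75th percentile was fitted in limma 3.58.1 (R 4.3.3) with 4 group means over all 15 arrays, 11 residual degrees of freedom. Probes had to be well above background on 3 or more arrays in the pair of groups tested. P-values are two-sided, with Benjamini-Hochberg adjustment over every tested probe and a threshold of 0.05. SE and 95% intervals are limma's, and SD is that of a group's arrays. Python 3.11.15, pandas 2.3.3 and numpy 2.4.6 did the rest, and the fit was tested on simulated data. The number of arrays limits the precision.

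All member probes are described and list genes are named where they passed, except some that are counted but not reported by name here; members, lists and tests were chosen with earlier results of these data known. Pairing by replicate number was checked by correlating deviations from group means. Vehicle arrays of one number in the 2 cell types, which also shared a slide, gave r of 0.20, 0.24, 0.36 and 0.29. Different numbers on one slide gave 0.23 to 0.32, so between the cell types pairing by number cannot be told apart from a shared slide. Pairs within a cell type are given with the dependence on processing. Alternatives changed normalization, background, filter, probes, samples, slide, spot position, replicate block and single arrays.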

Additional observations from a re-analysis of the deposited data

Results flagged for a closer look

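Among 48 sets of 4 arrays (a probe in a group) examined for a value far from the rest, 1 stood out: the leading Igfbp2 probe in ATII vehicle replicate 3, at -0.52. Its gap to the nearest array of the group (-1.33) was 0.915 of the group's range. Chance alone picks out about 1 in 20 such sets. The ATII BAPN array of the same number was also high, at -0.46.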

How the results depend on the processing

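Of the cell type differences called in vehicle arrays, those of Igfbp2, Igfbp3, Igfbp4 and Igf1r passed with the same direction under all 20 alternatives. Igfbp6 lost its call under 11, Igf2r under 2, and Igf1 and Igfbp5 under 1 each. The Igf2 fall in fibroblasts lost its call under 4 of 18 (range -1.88 to -0.50); slide 2 alone gave no value for it, since too few of those arrays were well above background. In vehicle arrays the median of all probes was -0.15, with 5732 higher and 7359 lower; quantile normalization gave -0.0087, 6528 and 6131, and the deposited values gave 6463 higher and 6159 lower. Causes were not tested.

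For BAPN in fibroblasts, the 4842 calls became 2982 with only these groups fitted, 576 on slide 1 alone (1 BAPN array) and 0 with the replicate block (9132 at an unadjusted p under 0.05, limma), where Igf2 had a log2 change of -1.58 (adjusted p = 0.109). BAPN and vehicle arrays of one number gave r of -0.03, 0.29 and 0.05 in fibroblasts, and 0.41, -0.01 and 0.00 in ATII cells. Different numbers on one slide gave lower r, -0.39 to -0.32 in fibroblasts and, without replicate 5, -0.24 to -0.14 in ATII cells. On different slides they gave -0.09 to 0.28 in fibroblasts and -0.24 to 0.23 in ATII cells. Deviations cancel out within a group, so the r values of one array depend on each other. Arrays of one number did not deviate together throughout, and what they share beyond a number and a slide is not settled by these values. Leaving out 1 array gave 1603 to 4634 there (with replicate 2 dropped 1603 for the BAPN array and 2219 for the vehicle array, with replicate 4 dropped 2377 for BAPN and 2325 for vehicle), and 0 to 1 in ATII cells (1 without BAPN replicate 1), where slide 2 alone, with 1 BAPN array, called 3284. In a group of 1 array, that array is assumed to vary like the other groups, which alone give the spread. Between cell types the replicate block ended the Igfbp6 call with vehicle (adjusted p = 0.0640) and with BAPN (adjusted p = 0.0527), and changed no other member's call. Counts of 13091 with vehicle became 8171 on slide 1 and 6199 on slide 2, and 12028 with BAPN became 2457 on slide 2 (1 ATII array). For the difference of the BAPN effect, 0 became 2 with no filter, 1 with a strict filter, with a single probe per gene or with the position correction, 128 on slide 1 (1 fibroblast BAPN array), and 0 to 632 with 1 array left out (632 without ATII BAPN replicate 4, 40 without fibroblast BAPN replicate 1, 2 without fibroblast BAPN replicate 2 and 1 without fibroblast vehicle replicate 1).

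All reversed signs were in values that did not pass. In ATII cells with BAPN they were Igf1 (-0.18 on slide 2), Igfbp2 (0.0757 with normexp), Igfbp5 (0.0856 with a slide block, 0.27 on slide 2, 0.0255 with the position correction), Igfbp6 (0.28 on slide 2, 0.0201 with the position correction) and Igfbp7 (-0.0169 with quantile normalization, -0.0288 with normexp, -0.0251 in the deposited table, -0.13 with a slide block, -0.16 on slide 1, -0.0405 with the replicate block). In fibroblasts with BAPN they were Igf1 (-0.15 on slide 2), Igf1r (0.0787 on slide 1), Igfbp2 (0.0300 with normexp), Igfbp6 (-0.0236 with quantile normalization, -0.0488 with normexp, -0.0234 in the deposited table) and Igfbp7 (-0.0427 on slide 2). On slide 2 Igfbp7 was 0.24 between cell types with BAPN and 0.20 as the difference of the BAPN effect. On slide 1 Igfbp7 passed at 2.17 for BAPN in fibroblasts, -1.93 between cell types with BAPN and -2.34 as the difference of the effect; these rest on fibroblast BAPN replicate 1 alone, the array that stands apart, with the spread taken from other groups. With 1 array left out, ATII changes with BAPN were -0.0477 to 0.14 for Igf1, -0.32 to 0.15 for Igfbp2, -0.30 to 0.10 for Igfbp5, -0.39 to 0.16 for Igfbp6 and -0.10 to 0.0715 for Igfbp7. Those in fibroblasts were -0.0718 to 0.35 for Igf1, -0.29 to 0.0774 for Igfbp2, -0.0923 to 0.81 for Igfbp3, -0.24 to 0.60 for Igfbp5, -0.0899 to 0.16 for Igfbp6 and -0.0354 to 1.20 for Igfbp7. Igfbp7 was -0.97 to 0.26 between cell types with BAPN and -1.19 to 0.0408 as the difference of the BAPN effect.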

Other observations

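On BAPN arrays, 22 genes of the lists described above were higher and 26 lower in ATII cells than in fibroblasts, of 93 tested, beside 31.0% of all probes. Among them were the insulin receptor gene Insr (log2 change -0.52, limma adjusted p = 0.0244) and the docking protein gene Irs1 (-0.50, adjusted p = 0.0271). In vehicle arrays these did not pass, with changes of -0.32 and -0.07. The BAPN effect itself did not pass as different between the cell types for any of the 96 list genes tested in limma, and 12 had an unadjusted p under 0.05. Insr and Irs1 were chosen after their values were seen.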
